A study of Mus musculus with 3 samples.

Results

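Mitotic tumour cells are the cells of Lewis lung carcinoma tumours that carried the most transcripts of Cenpf, Cenpe, Ube2c, Cdc20 and Ccnb2, and 1495 of 14941 tumour-gated cells (10.0%) were assigned to them, out of 28943 cell barcodes in all. LLC1 cells, a mouse line from a Lewis lung carcinoma, had been injected at 1000000 cells in 10 µL into the right tibia of 3 kinds of host at 8 weeks of age, and tumours were taken at day 14. The hosts carried DMP1-Cre with Mfn2 deleted (DMP1-Cre Mfn2-/-), DMP1-Cre with Rhot1 deleted (DMP1-Cre Rhot1-/-) or were wild type (WT), and each kind was represented by 1 droplet 3' single-cell RNA library that mixed the tumours of 3 mice in equal parts. Mfn2 encodes mitofusin 2, which fuses mitochondrial outer membranes, and Rhot1 encodes Miro1, which couples mitochondria to motor proteins. Dmp1-Cre acts mainly in osteocytes, so host bone cells and not the injected tumour cells should carry the deletion, and no Cre is named for the WT hosts, so Cre and deletion cannot be told apart. With 1 library per genotype there was no replicate check and no test, and every interval below covers counting error only.

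A cell that enters mitosis disassembles its nuclear envelope, condenses its chromosomes and attaches them to a bipolar spindle through the kinetochores. Cyclin B bound to CDK1 drives entry, Aurora and Polo kinases build the spindle, and the anaphase-promoting complex (APC/C) ends the phase by marking cyclin B and securin for destruction. The mRNAs of many of these proteins accumulate in G2 and mitosis and are low in G1, because the DREAM and MuvB complexes act on their promoters through the cell cycle genes homology region (CHR) and NF-Y acts on nearby CCAAT boxes. In a carcinoma such cells are among those in cycle at sampling. The number of members here was set by a cut-off on a score, so it does not measure the dividing share.

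The tumour gate kept cells with 5000 or more UMIs (unique molecular identifiers, 1 per captured transcript), no UMI of the leukocyte gene Ptprc and 5 or more UMIs of the epithelial keratins Krt8 and Krt18 and of Hmga2, a chromatin protein of embryonic and tumour cells, summed. It held 5379 DMP1-Cre Mfn2, 5242 DMP1-Cre Rhot1 and 4320 WT cells. The score of a cell was its summed UMIs of the 5 genes per 10000 UMIs, and the pooled top 10% were taken. The lowest scores inside the threshold were 17.50 and 17.51, and the highest outside it were 17.48 and 17.47. No gap separated the members from the rest: 234 members lay within 10% above the threshold and 302 cells within 10% below it, so the group is a range of a continuous score. Members had a median score of 23.9 in DMP1-Cre Mfn2, 24.4 in DMP1-Cre Rhot1 and 23.4 in WT, and the highest score was 66.1. At the other end, 2990 tumour-gated cells (20.01%) had no UMI of any of the 5 genes.

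**Figure D1:**
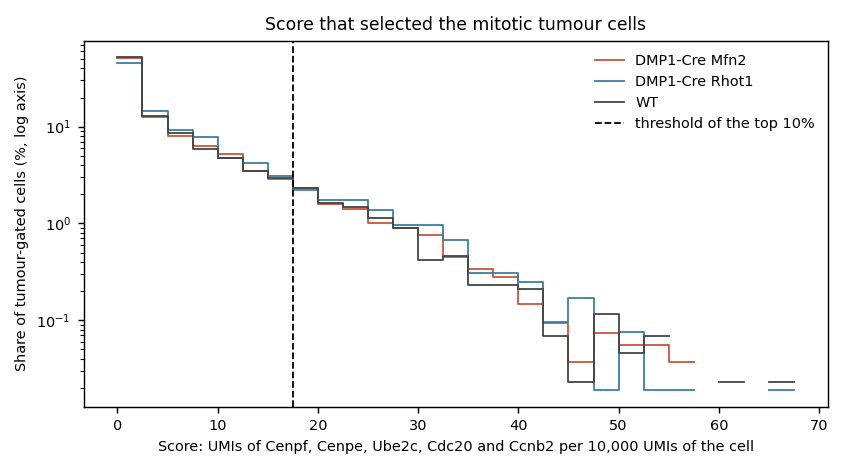
Share of tumour-gated cells (%, log axis) by score, in bins of 2.5 score units, for the 3 libraries (lines). The dashed line is the threshold of the pooled top 10%; near it the lines of the libraries run close together and show no gap.

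The 5 genes act at successive steps of the same process. Cenpf (chr1:189640606-189688086, mm10, minus strand) encodes a large kinetochore-associated protein, and Cenpe (chr3:135212537-135273611, plus strand) the kinesin motor that moves chromosomes to the spindle equator. Ube2c (chr2:164769898-164778822, plus strand) encodes the ubiquitin-conjugating enzyme of the APC/C, and Cdc20 (chr4:118432901-118437352, minus strand) its activator at the metaphase to anaphase transition. Ccnb2 (chr9:70407692-70421547, minus strand) encodes cyclin B2. Of the UMIs that made up the members' score, Cenpf gave 32.6%, Ube2c 30.0%, Cenpe 17.0%, Cdc20 10.6% and Ccnb2 9.82%, so the selection rested mostly on Cenpf and Ube2c.

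Promoters of 5 genes, chosen out of 12 looked up because they show each motif and its variant, are printed beside the levels. Each stretch is the 120 bases before the RefSeq transcription start on the gene's own strand (RefSeq, GRCm38.p6), and capitals mark TTTGAA (the CHR core), TTTAAA (its variant) and CCAAT, on either strand, so that TTCAAA and ATTGG are the same motifs read from the opposite strand. They are Cdc20 at chr4:118437344-118437463 (minus strand), Ube2c at chr2:164769809-164769928 (plus), Ccnb2 at chr9:70421555-70421674 (minus), Ccnb1 at chr13:100786487-100786606 (minus) and the downstream of the 2 starts of Prc1 at chr7:80294356-80294475 (plus).
Cdc20: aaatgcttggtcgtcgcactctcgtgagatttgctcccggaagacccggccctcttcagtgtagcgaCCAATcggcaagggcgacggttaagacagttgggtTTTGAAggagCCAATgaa
Ube2c: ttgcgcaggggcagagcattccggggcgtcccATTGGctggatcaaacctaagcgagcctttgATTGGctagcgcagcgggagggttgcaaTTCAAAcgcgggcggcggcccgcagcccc
Ccnb2: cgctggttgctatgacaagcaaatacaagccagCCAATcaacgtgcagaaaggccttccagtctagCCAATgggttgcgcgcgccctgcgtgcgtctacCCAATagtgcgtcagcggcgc
Ccnb1: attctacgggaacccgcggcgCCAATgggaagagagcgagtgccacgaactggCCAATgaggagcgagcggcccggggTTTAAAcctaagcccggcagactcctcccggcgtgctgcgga
Prc1: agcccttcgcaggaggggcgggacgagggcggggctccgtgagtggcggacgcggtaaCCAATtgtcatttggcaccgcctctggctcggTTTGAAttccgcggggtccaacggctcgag

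In Cdc20 the TTTGAA began 18 bases before the start and in Ube2c 29 bases before it, and in the Prc1 stretch it began 30 bases before the start with a CCAAT beginning 62 bases before it. The Ccnb1 stretch held TTTAAA in place of TTTGAA. In Ccnb2 3 CCAAT boxes lay within the printed stretch and its TTTGAA letters lay outside it, the nearer 5 bases into the transcript. Of the 12 genes, 3 held TTTGAA in full within a stretch of the printed length before a start, and all 3 are printed. Another 7 (Ccnb2, Cenpf, Plk1, Aurka, Hmmr, Aspm and Cenpa) held it 3 to 33 bases into the transcript. Of these, Ccnb2 also held it farther upstream than the printed stretch, with its first base at -167 from the start. Cenpe and Ccnb1 held none from 250 bases before to 50 after the start.

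The selected cells carried more transcripts of other mitosis genes, of which 85 of 131 at 10 CPM or more were past the fold described below and 46 were not. Of all 8581 genes at that minimum, 2.67% were higher past it. Over 132 other genes of mitosis, the median cell had 169 UMIs per 10000 in DMP1-Cre Mfn2, 172 in DMP1-Cre Rhot1 and 171 in WT mitotic cells, against 54.6, 67.4 and 51.0 in the other tumour-gated cells of the same libraries. Taking the top 10% by those 132 genes instead gave 1495 cells, of which 930 (62.2% of either set) were also members. Many of these mRNAs accumulate in G2 as well as in mitosis, so the label does not tell G2 cells from mitotic ones. Any cell is placed with limited precision. The 132 genes and the 5 score genes were read from the same cells, so the agreement is a description of the cells selected.

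Members made up 9.57% (95% interval 8.80 to 10.4) of tumour-gated cells in DMP1-Cre Mfn2, 10.97% (10.1 to 11.8) in DMP1-Cre Rhot1 and 9.375% (8.52 to 10.3) in WT, that is 515, 575 and 405 cells. The intervals, exact Clopper-Pearson, overlapped for all 3 libraries, with DMP1-Cre Rhot1 the highest. By the score of the 132 other genes the shares were 8.92% (8.17 to 9.72) in DMP1-Cre Mfn2, 11.8% (10.9 to 12.7) in DMP1-Cre Rhot1 and 9.24% (8.39 to 10.1) in WT. There the DMP1-Cre Rhot1 interval lay above the other two.

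Members held more RNA than the other tumour-gated cells. Their median was 20712 UMIs in DMP1-Cre Mfn2, 21552 in DMP1-Cre Rhot1 and 22688 in WT, against 15686.5, 16315 and 17178 in the other cells of those libraries, a ratio of 1.32 in each. The median number of genes was 4884 in DMP1-Cre Mfn2, 5062 in DMP1-Cre Rhot1 and 5015 in WT members, against 4079.5, 4242 and 4172 in the other cells. Mitochondrially encoded transcripts took a median 1.37% of UMIs in DMP1-Cre Mfn2, 1.49% in DMP1-Cre Rhot1 and 1.10% in WT members, against 1.297%, 1.49% and 1.05% in the other cells. The doublet caller Scrublet marked 6 DMP1-Cre Mfn2, 6 DMP1-Cre Rhot1 and 2 WT members, a share of 0.494% to 1.17%, against 1.44% to 1.84% of the other tumour-gated cells. Of all barcodes, 76 occurred in 2 libraries, and 1 of them was a member in both.

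Markers of other cell types stood in the members as follows. All 7 macrophage markers were detected in each library, at a summed 173 counts per 1000000 UMIs (CPM) in DMP1-Cre Mfn2, 192 in DMP1-Cre Rhot1 and 184 in WT members, against 1897 to 2477 CPM over all kept cells. In the other tumour-gated cells the macrophage sums were 237 CPM in DMP1-Cre Mfn2, 269 in DMP1-Cre Rhot1 and 230 in WT. Of the members, 81.7% to 85.7% in each library held 2 or more UMIs of these markers. The 4 neutrophil markers summed to 160 CPM in DMP1-Cre Mfn2, 71.0 in DMP1-Cre Rhot1 and 81.6 in WT members, against 1109.6 to 1937 CPM over all kept cells. In the other tumour-gated cells the neutrophil sums were 169, 93.9 and 127 CPM in the same libraries. T, NK, B and dendritic cell, endothelial, erythroid and osteoblast or osteocyte markers each summed to under 7 CPM in every library, with Sp7 and Sost at 0 in all 3. The 3 osteoclast markers summed to 9.58 to 12.7 CPM. The 4 fibroblast markers summed to 272 CPM in DMP1-Cre Mfn2, 239 in DMP1-Cre Rhot1 and 366 in WT members, against 422, 361 and 971 CPM in the other tumour-gated cells. Krt8, the main gate gene, stood at 643 CPM in DMP1-Cre Mfn2, 592 in DMP1-Cre Rhot1 and 610.2 in WT members, and Hmga2 at 570.01, 534 and 499.6 CPM, as the gate requires these transcripts in every member. Outside the gate, 69 DMP1-Cre Mfn2, 79 DMP1-Cre Rhot1 and 85 WT cells of 5000 or more UMIs also passed the score threshold and were left out, most of them (50, 60 and 69) with a Ptprc UMI. The part of such transcripts in the values below was not tested.

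The first comparison set the members of each library against its other tumour-gated cells, which shows what these cells carry beyond the 5 genes. UMIs were summed over cells and given as CPM, and a gene counted as past the fold when its log2 ratio, with 5 CPM added to both sides, was 0.5 or more in size with the same sign in all 3 libraries. Of 3469 genes at 50 CPM or more, 135 (3.89%) were higher in the members and 24 (0.692%) lower. Leaving out the 5 score genes left 130 higher genes, of which 63 stood in the lists of mitosis genes and 67 did not. The same cells were chosen by the score, so these counts describe the selection.

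The score genes themselves, given as values only, were at 829 CPM for Cenpf in DMP1-Cre Mfn2, 874 in DMP1-Cre Rhot1 and 831 in WT members, against 115, 124 and 114 CPM in other cells. Ube2c stood at 784 CPM in DMP1-Cre Mfn2, 781 in DMP1-Cre Rhot1 and 778 in WT members, against 123, 127 and 117 CPM in other cells. Cenpe was at 418 to 462 CPM in members, against 72.8 to 93.9 CPM in other cells, Cdc20 at 272 to 280.5 against 50.3 to 59.7 CPM, and Ccnb2 at 240.1 to 273 against 72.1 to 76.4 CPM. The pooled threshold on these genes fixes that the libraries are alike in them.

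Kinases and cyclins of entry into mitosis were well above the other cells. Ccnb1, cyclin B1, stood at 222 CPM in DMP1-Cre Mfn2, 228 in DMP1-Cre Rhot1 and 216 in WT members, against 36.8, 44.8 and 39.7 CPM in the other cells. Aurka, the Aurora A kinase of the spindle poles, stood at 132 CPM in DMP1-Cre Mfn2, 121 in DMP1-Cre Rhot1 and 134 in WT members, against 21.4, 21.9 and 20.6 CPM. Plk1, the Polo-like kinase, stood at 107 CPM in DMP1-Cre Mfn2, 119 in DMP1-Cre Rhot1 and 110.0 in WT members, against 17.8, 21.5 and 17.7 CPM. The libraries lay close together within the members and within the other cells. Of the 10 genes listed as cyclins, CDK1 and its regulators, 8 were past the fold, with Cdc25c, a phosphatase that activates CDK1, at log2 ratios of 1.76 to 1.84. Pkmyt1 and Wee1, kinases that hold CDK1 inactive, were at 0.02 to 0.34. All 10 genes of the Aurora, Polo and chromosomal passenger list were past the fold, from Bora at 1.02 to 1.30, an activator of Polo, to Aurka at 2.23 to 2.44. At the same 10 CPM minimum, 2.67% of all 8581 genes tested were higher and 0.501% lower, with median log2 ratios of 0.05 to 0.07.

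Of the 12 mitosis lists, spindle and centrosome proteins had the highest medians. Aspm, a protein of spindle poles, stood at 142 CPM in DMP1-Cre Mfn2, 152 in DMP1-Cre Rhot1 and 157.5 in WT members, against 18.9, 22.5 and 25.3 CPM in the other cells. Prc1, which bundles the antiparallel microtubules of the central spindle, stood at 355 CPM in DMP1-Cre Mfn2, 363 in DMP1-Cre Rhot1 and 354 in WT members, against 74.0, 82.7 and 69.9 CPM. Hmmr, a spindle assembly factor, was at 216 to 224 CPM against 35.0 to 43.1 CPM, and Nusap1, which binds spindle microtubules near chromosomes, at 184 to 225 against 31.6 to 43.9 CPM. These genes were picked as the highest in all 3 libraries, so their separation from the other cells follows from the choice. Of 13 spindle and centrosome genes at 10 CPM or more (14 were listed), 12 were past the fold, with list medians of 1.83 in DMP1-Cre Mfn2, 1.68 in DMP1-Cre Rhot1 and 1.88 in WT. All 12 mitotic kinesins were past it, with medians of 1.65, 1.57 and 1.80 in the same libraries. They include Kif2c, which depolymerises microtubules at centromeres (75.3 to 79.9 CPM against 11.9 to 17.4), and Kif20a and Kif20b, motors of the spindle midzone. Tpx2, the activator of Aurora A, stood at 303 to 324 CPM against 71.0 to 83.2 CPM.

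**Figure D2:**
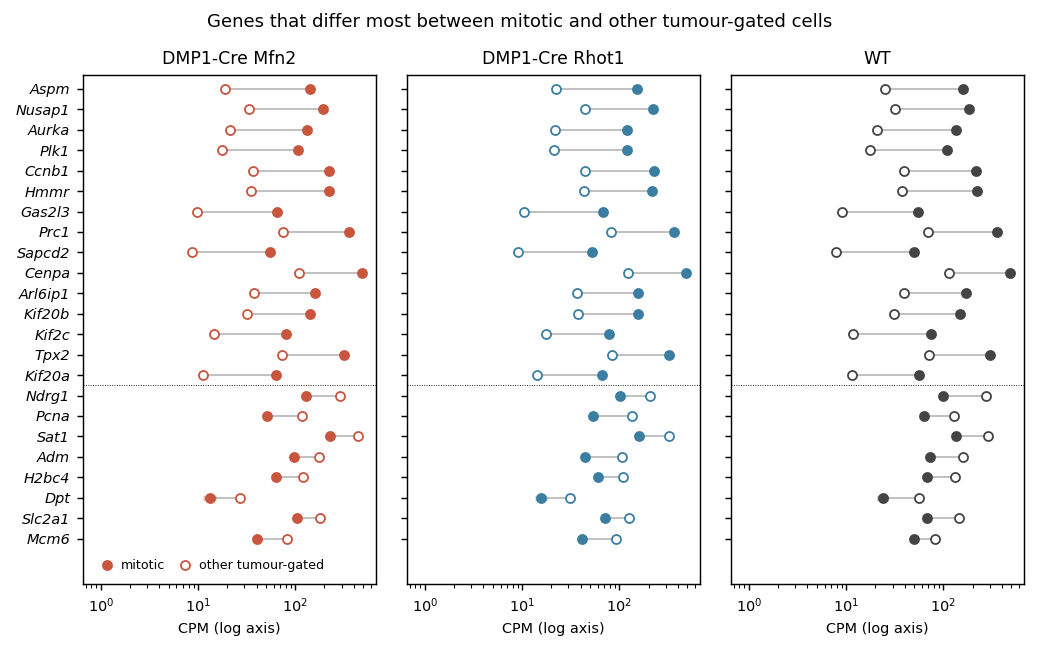
CPM (log axis) of the 15 genes highest and, below the dotted line, the 8 genes lowest in mitotic over other tumour-gated cells, in the summed mitotic cells (filled) and other tumour-gated cells (open) of each library; pale bars are 95% Poisson intervals of the mitotic values and mostly lie within the points. The filled points lie right of the open ones for all 15 higher genes and left of them for all 8 lower genes, in all 3 libraries.

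Kinetochore genes differed from gene to gene in both layers. Cenpa, the histone H3 variant that marks centromeres, stood at 484 CPM in DMP1-Cre Mfn2, 484 in DMP1-Cre Rhot1 and 490 in WT members, against 108, 122 and 113 CPM in the other cells. Of 15 inner kinetochore genes 9 were past the fold, and Cenpx, a small histone-fold subunit, was at log2 ratios of -0.34 to -0.09. In the outer kinetochore 8 of 13 were past it, led by Knl1, the scaffold that recruits the checkpoint kinases, at 126 to 142 CPM against 35.3 to 46.6 CPM. Zwint was at ratios of only 0.18 to 0.24. Of the 6 spindle checkpoint genes 5 were past the fold. Bub1b was at 76.0 to 92.5 CPM against 19.1 to 27.4 CPM, while Mad1l1 did not reach the fold at 0.31 to 0.44.

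Genes of the APC/C and of cohesin mostly did not reach the fold. Of 17 APC/C subunits and regulators 2 were past the fold, with list medians of 0.21 in DMP1-Cre Mfn2, 0.16 in DMP1-Cre Rhot1 and 0.26 in WT. The 2 were Fzr1, the activator that replaces Cdc20 at mitotic exit (95.5 to 111 CPM against 39.0 to 45.1 CPM), and Ube2s, the enzyme that extends ubiquitin chains (16.1 to 24.1 against 8.61 to 10.5 CPM). The core subunits Cdc16, Anapc2 and Anapc13 were at 0.03 to 0.15. Among 11 genes of cohesin and separase 4 were past the fold: Pttg1 (securin), Espl1 (separase) and Rad21, the cohesin subunit that separase cuts, were 3 of them, while the ring subunit Smc3 stood at 179 to 204 CPM against 168 to 194 CPM. Of 8 condensin genes 5 were past it, and Ncapd3 and Ncaph2, subunits of condensin II, were at -0.06 to 0.43. Of 7 cytokinesis genes 5 were past it, among them Ect2, the activator of the GTPase RhoA at the cleavage furrow, at 1.67 to 1.84, whereas Rhoa itself was at -0.07 to 0.00.

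**Figure D3:**
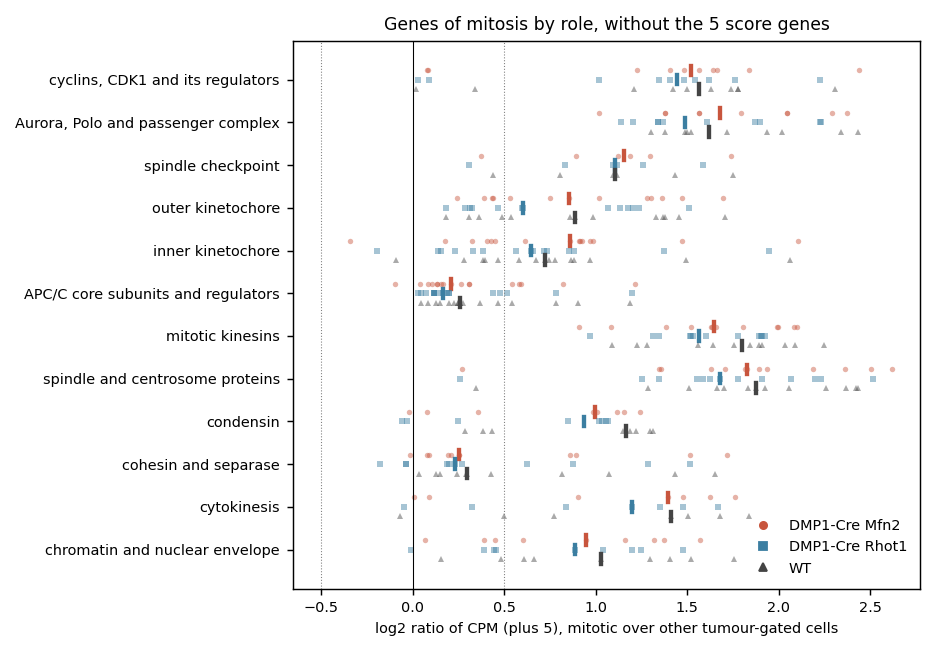
Log2 ratio of CPM (5 CPM added) in mitotic over other tumour-gated cells for genes of the 12 mitosis lists, 1 point per gene and library (score genes left out); thick ticks are list medians, dotted lines the fold of 0.5 either way. Most lists lie right of the dotted line, and the ticks of the APC/C and cohesin lists lie left of it, at 0.16 to 0.30.

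Of 9 genes for chromatin and the nuclear envelope 5 were past the fold, and Cbx5 (a heterochromatin protein) and Lbr (the lamin B receptor), at -0.01 to 0.48, were among the 4 that were not. Top2a, the topoisomerase that decatenates sister chromatids, stood at 716 CPM in DMP1-Cre Mfn2, 778 in DMP1-Cre Rhot1 and 743 in WT members, against 274, 324 and 277 CPM, and Mki67, which coats mitotic chromosomes, at 415 to 477 against 136 to 168 CPM. Foxm1, a transcription factor that activates late cell cycle genes, was the 1 gene past the fold upward among 13 cell cycle transcription factors, at ratios of 1.01 to 1.17, and E2f1, an activator of S-phase genes, the 1 gene past it downward, at -1.16 to -0.95. Outside the lists, and chosen after their values were seen, the tubulins Tubb4b (599 to 621 against 211 to 228 CPM) and Tubb5 (1053 to 1131 against 717 to 772 CPM) were among the 67 other genes. The genes that led those 67 were Gas2l3, a linker of actin and microtubules, Sapcd2, and Arl6ip1, a membrane-shaping protein of the endoplasmic reticulum. Gas2l3 stood at 55.2 to 67.4 CPM against 8.96 to 10.6 CPM, Sapcd2 at 49.8 to 54.6 against 7.88 to 9.09 CPM, and Arl6ip1 at 156 to 171 against 36.7 to 39.5 CPM. The cell cycle inhibitor Cdkn2d (p19) was higher as well, at 121 to 139 CPM against 53.7 to 66.0 CPM, whereas Cdkn1a (p21) was lower, at 32.8 to 44.4 against 53.1 to 78.8 CPM.

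The CHR core was frequent in the promoters of the higher genes. Of the 130 higher genes without the score genes, 105 matched a RefSeq promoter (250 bases before to 50 after the start), and TTTGAA occurred on either strand in 63 (60.0%). It occurred in 426 of the 2824 tested genes that matched (15.1%) and in 5466 of all 27025 genes with a promoter of that length (20.2%). A gene counted when the promoter of any of its starts held the motif, so genes with more starts had more places for a match. CCAAT was in 77 of the 105 (73.3%), against 43.0% of the genes tested and 41.1% of all genes with such a promoter. Both motifs were in 51 (48.6%), against 6.76% and 7.97%. TTTAAA was in 15.2%, against 11.01% and 14.9%. Of the 24 lower genes 18 matched, with TTTGAA in 2 and CCAAT in 10. Overlaps between motifs were not removed, and a match describes the letters only.

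A part of the listed genes of DNA replication and of low oxygen was lower in the members. Pcna, the sliding clamp of DNA polymerases, stood at 51.8 CPM in DMP1-Cre Mfn2, 53.3 in DMP1-Cre Rhot1 and 62.7 in WT members, against 118, 136 and 128 CPM in the other cells. Mcm6, a subunit of the replicative helicase, stood at 40.1 CPM in DMP1-Cre Mfn2, 41.8 in DMP1-Cre Rhot1 and 49.3 in WT members, against 83.2, 92.5 and 82.8 CPM. Both were picked as among the lowest in all 3 libraries, so that members and other cells do not overlap follows from the choice. Of 32 replication and G1/S genes at 10 CPM or more, 8 were lower past the fold and none was higher, with list medians of -0.49 in DMP1-Cre Mfn2, -0.54 in DMP1-Cre Rhot1 and -0.26 in WT. Tk1 and Rrm1, which supply deoxynucleotides, were at 0.07 to 0.42.

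Ndrg1, a gene induced by low oxygen, stood at 128 CPM in DMP1-Cre Mfn2, 101 in DMP1-Cre Rhot1 and 98.7 in WT members, against 289, 207 and 277 CPM in the other cells. Of 12 hypoxia genes 4 were lower past the fold, among them Adm (adrenomedullin) at 44.8 to 96.2 against 108 to 174 CPM and Bnip3, a mitophagy receptor, at 28.3 to 46.6 against 54.8 to 74.4 CPM. The list medians were -0.54 in DMP1-Cre Mfn2, -0.48 in DMP1-Cre Rhot1 and -0.67 in WT. Slc2a1, the glucose transporter GLUT1, was the 1 of 16 glycolysis genes past the fold, at 67.6 to 104 CPM in members against 125 to 181 CPM. The enzymes Pkm and Tpi1 were at -0.08 to -0.04. Sat1, which acetylates polyamines for export and breakdown, stood at 226 CPM in DMP1-Cre Mfn2, 161 in DMP1-Cre Rhot1 and 135 in WT members, against 444, 325 and 288 CPM. The matrix genes Dpt and Dcn were lower too, Dcn (decorin) at 191 to 273 CPM against 285 to 757 CPM, and Dcn is also 1 of the fibroblast markers whose sums are given above.

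The mitochondrial genes of the design were near the same level in all libraries. In the members Mfn2 stood at 21.5 CPM in DMP1-Cre Mfn2, 22.3 in DMP1-Cre Rhot1 and 18.6 in WT, and Rhot1 at 23.9, 23.9 and 23.3 CPM in the same libraries. Tumour cells are not the cells in which the deletion is directed, and 3' tags outside a deleted part check nothing of the genotype. None of 13 genes of mitochondrial dynamics and transport, none of 11 mitochondrially encoded genes and none of 84 nuclear genes of the respiratory chain was past the fold between members and other cells, with medians between 0.01 and 0.15.

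A comparator chosen in the same way for S phase, the top 10% by Mcm3, Mcm5, Mcm6, Uhrf1 and Ccne2, held 439 DMP1-Cre Mfn2, 648 DMP1-Cre Rhot1 and 408 WT cells. Only 10 cells belonged to both sets, 0.669% of either. The 132 mitosis genes other than the score genes summed to 16803 CPM in DMP1-Cre Mfn2, 17461 in DMP1-Cre Rhot1 and 17555 in WT mitotic cells, against 10178, 10376 and 10780 CPM in the S-phase comparator and 8000 to 8905 CPM in the cells outside the members. The replication genes summed to 1358 CPM in DMP1-Cre Mfn2, 1452 in DMP1-Cre Rhot1 and 1620.3 in WT mitotic cells, against 4147, 4276 and 4320 CPM in the comparator. Plk1 was at 14.0 to 15.1 CPM in the comparator, close to its level in the other tumour-gated cells, whereas Top2a was at 428 to 469 CPM, between the other cells and the mitotic cells.

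The members were also ordered by the same score that had selected them, so trends along it describe that ordering and are no independent result. The other mitosis genes rose with the score. Split by score into 4 bands of 373 or 374 cells each, the 132 other mitosis genes summed to 14957 CPM in the lowest band, 16395 and 17612 in the next ones and 20009.6 CPM in the highest, pooled over libraries. Prc1 was at 245 CPM in the lowest and 473 CPM in the highest band, Ccnb1 at 162 and 291 CPM, and Aspm at 105 and 214 CPM. Some other genes ran the other way: Pcna was at 69.8 CPM in the lowest and 44.7 CPM in the highest band, Ccne2 (cyclin E2) at 10.2 and 4.10 CPM, and the hypoxia gene Ndrg1 at 132 and 78.0 CPM. The S-phase genes Tk1, at 74.9 and 73.2 CPM, and Rrm2 (ribonucleotide reductase), at 118 and 113 CPM, did not follow them. Ccnd1, cyclin D1, stayed at 375 to 388 CPM in all 4. Median depth was 20488.5 UMIs in the lowest and 22335.5 in the highest band, and its part in these values was not tested.

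The second comparison asked how the members differed between hosts. In members, no listed mitosis gene reached the fold in either comparison. Of the 131 mitosis genes at 10 CPM or more in members or other cells, the log2 ratio of DMP1-Cre Mfn2 over WT in members ran from -0.47 (Anapc4) to 0.41 (Wee1), and 115 of them lay within 0.25 of 0. That of DMP1-Cre Rhot1 over WT ran from -0.33 (Cenpm) to 0.36 (Ska3), with 117 within 0.25 of 0. The ratio of CPM was 1.03 (0.969 to 1.09) for Ccnb1 and 0.984 (0.913 to 1.06) for Aurka in DMP1-Cre Mfn2 over WT, and 1.06 (0.998 to 1.12) and 0.905 (0.841 to 0.975) in DMP1-Cre Rhot1 over WT. Selection on a common score holds such genes to a like level, so these values describe the selection as well as the hosts. The median over the mitosis genes was -0.03 for DMP1-Cre Mfn2 and 0.03 for DMP1-Cre Rhot1 in members. In the other tumour-gated cells it was -0.002 and 0.17, with 1 gene higher past the fold in DMP1-Cre Mfn2.

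Other genes did differ. In DMP1-Cre Mfn2 over WT members, 58 of 3306 genes at 50 CPM or more were higher past the fold (1.75%) and 28 lower (0.847%). In DMP1-Cre Rhot1 over WT members, 45 of 3333 were higher (1.35%) and 23 lower (0.690%). At 10 CPM or more, which the gene lists use, 2.12% of 8318 genes were higher and 0.998% lower in DMP1-Cre Mfn2, and 1.57% of 8350 higher and 0.838% lower in DMP1-Cre Rhot1. Both comparisons use the same WT library, so genes that stand apart in it appear in both, and no overlap between them is given as a result.

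Both comparisons were led by Prxl2a, whose product resembles peroxiredoxins. It stood at 393 CPM in DMP1-Cre Mfn2, 291 in DMP1-Cre Rhot1 and 65.1 in WT members, which is 6.03-fold (5.55 to 6.57) and 4.48-fold (4.11 to 4.88) over WT. In the other tumour-gated cells it stood at 322 CPM in DMP1-Cre Mfn2, 232 in DMP1-Cre Rhot1 and 83.0 in WT. The log2 ratio of members over other cells was 0.28 in DMP1-Cre Mfn2, 0.33 in DMP1-Cre Rhot1 and -0.33 in WT, none of them past the fold. Odc1, the ornithine decarboxylase that begins polyamine synthesis, stood at 3928 CPM in DMP1-Cre Mfn2, 3136 in DMP1-Cre Rhot1 and 1919.7 in WT members, against 3058, 2844 and 1783 CPM in the other cells, so its order of libraries was shared by both kinds of cell.

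Gap43, a protein of growing neurites, stood at 83.6 CPM in DMP1-Cre Mfn2, 90.9 in DMP1-Cre Rhot1 and 37.8 in WT members, and at 75.8, 75.02 and 52.0 CPM in the other cells. Its log2 ratio to WT in members was 1.05 for DMP1-Cre Mfn2 and 1.16 for DMP1-Cre Rhot1, against 0.50 and 0.49 in other cells. Xdh (xanthine dehydrogenase) was at 66.8 CPM in DMP1-Cre Mfn2, 48.5 in DMP1-Cre Rhot1 and 26.7 in WT members, and Dkk2, a secreted Wnt antagonist, at 149, 168 and 85.2 CPM in the same libraries. In the other cells the log2 ratio to WT was 0.90 for Xdh and 0.44 for Dkk2 in DMP1-Cre Mfn2, and 0.60 for Xdh and 0.74 for Dkk2 in DMP1-Cre Rhot1. Cpe (carboxypeptidase E), Ecm1 (extracellular matrix protein 1), Rbp4 (retinol-binding protein 4) and Gpnmb, a transmembrane glycoprotein, completed the 8 highest for DMP1-Cre Mfn2 over WT, at 0.80 to 1.09. Cpe, Ecm1, Gsta4 (a glutathione S-transferase) and Apobr (the apolipoprotein B receptor) were also among those for DMP1-Cre Rhot1 over WT, at 0.74 to 0.82. Of 10 genes listed for tumour states, which include Prxl2a, Xdh, Dkk2, Cpe and Gpnmb and were listed because earlier results of these data were known, 5 were higher in DMP1-Cre Mfn2 and 4 in DMP1-Cre Rhot1, and that count is not independent of those results.

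Matrix genes and Atf3 were lower in members of both knockout hosts. Col6a3, a collagen VI chain, stood at 61.6 CPM in DMP1-Cre Mfn2, 80.3 in DMP1-Cre Rhot1 and 152 in WT members, and at 59.6, 70.4 and 172 CPM in other cells. Lum (lumican) stood at 27.9 CPM in DMP1-Cre Mfn2, 23.3 in DMP1-Cre Rhot1 and 65.6 in WT members, against 34.3, 48.7 and 177 CPM in other cells, and 1 cell held 70 of its 304 UMIs in DMP1-Cre Rhot1 members. Of 7 matrix genes at 10 CPM or more, 5 were lower in DMP1-Cre Mfn2 and 6 in DMP1-Cre Rhot1. The fibroblast markers, of which Lum is 1, had sums in the members that ran in a like order, 272, 239 and 366 CPM, and their part was not tested. Atf3, a stress-induced transcription factor, stood at 25.02 CPM in DMP1-Cre Mfn2, 19.6 in DMP1-Cre Rhot1 and 57.9 in WT members, against 41.3, 33.6 and 107 CPM in other cells. Tmem176b and the histone gene H2ac20 were also among the 8 lowest for DMP1-Cre Mfn2 over WT, and Mmp3 (stromelysin), Arhgap6 and the gene row Mir6236 among those for DMP1-Cre Rhot1 over WT, at -0.99 to -0.67. With the top 5% of the score as members Mmp3 was at -0.15, Mir6236 at -0.48 and Gsta4 at 0.48, and with the top 20% H2ac20 was at -0.47, H4c4 at -0.46 and, in DMP1-Cre Mfn2, H2ac24 at -0.40, all short of the fold. Krt18, which the tumour gate counts, stood at 37.2 CPM in DMP1-Cre Mfn2, 37.1 in DMP1-Cre Rhot1 and 60.2 in WT members, against 42.9, 41.5 and 47.1 CPM in other cells.

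**Figure D4:**
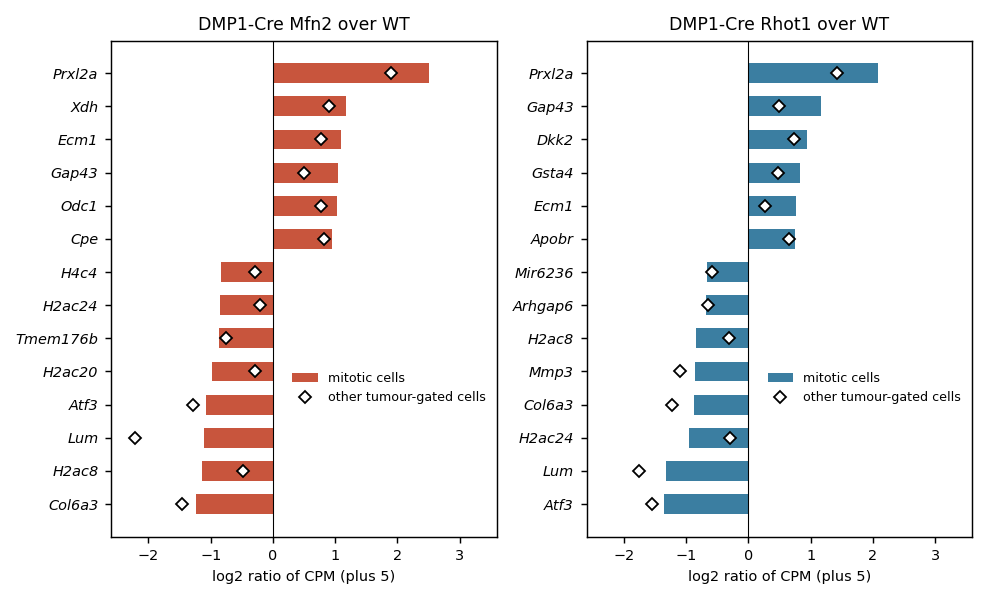
Log2 ratio of CPM (5 CPM added) over WT for the 6 highest and 8 lowest named genes of each comparison, in mitotic cells (bars) and in other tumour-gated cells (diamonds). Prxl2a has the longest bar in both panels, at 2.50 and 2.08; for the histone genes H2ac8 and H2ac24 the diamonds lie nearer to 0 than the bars, and for Col6a3, Lum and Atf3 farther from it.

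Many histone genes were lower past the fold in DMP1-Cre Mfn2 than in WT members, and fewer were past it in DMP1-Cre Rhot1. Replication-dependent histone mRNAs are made in S phase and mostly lack a poly(A) tail, so a 3' kit that primes on poly(A) captures a small part of them, and near-identical copies can share or lose reads, which makes single histone genes uncertain. H2ac8 stood at 114 CPM in DMP1-Cre Mfn2, 141 in DMP1-Cre Rhot1 and 258 in WT members, against 139, 157 and 196 CPM in the other cells. H2ac24 stood at 351 CPM in DMP1-Cre Mfn2, 327 in DMP1-Cre Rhot1 and 635 in WT members, against 470.3, 439.8 and 543 CPM. The log2 ratio of members over other cells was -0.27 for H2ac8 and -0.42 for H2ac24 in DMP1-Cre Mfn2, -0.15 and -0.42 in DMP1-Cre Rhot1, and 0.39 and 0.22 in WT. Its sign thus differed between the knockout hosts and WT, and none of these values passed the fold. H4c4 stood at 88.9 CPM in DMP1-Cre Mfn2, 128 in DMP1-Cre Rhot1 and 162 in WT members, against 77.8, 109 and 96.0 CPM. H2bc4, 1 of 2 histone genes below the other cells past the fold in all 3 libraries, stood at 63.0 CPM in DMP1-Cre Mfn2, 61.1 in DMP1-Cre Rhot1 and 68.1 in WT members, against 119, 110.2 and 133 CPM.

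Of 64 listed histone genes, 20 reached 10 CPM in at least 1 of the sums of members or other cells. WT members were the highest of the 3 libraries for 18 of these 20, and WT was the highest for 9 of the 20 in other tumour-gated cells. Over all 8581 genes at 10 CPM or more, WT was the highest in 29.9% in members and in 26.4% in other cells. Of 19 that passed in members, 16 were lower past the fold in DMP1-Cre Mfn2 and 5 in DMP1-Cre Rhot1, with none higher, and list medians of -0.73 and -0.33, against -0.21 and 0.01 in the other cells. With the top 20% of the score as members these medians were -0.32 for DMP1-Cre Mfn2 and -0.10 for DMP1-Cre Rhot1. The histone genes summed to 1161 CPM in DMP1-Cre Mfn2, 1393 in DMP1-Cre Rhot1 and 2039 in WT members, against 1565, 1777 and 1838 CPM in other cells and 2115, 2108 and 2688 CPM in the S-phase comparator. Leaving out the members that were also in the S-phase comparator gave 1162, 1396 and 2045 CPM in members of those libraries.

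The spread between cells was wide. The median member had 511 histone UMIs per 1000000 in DMP1-Cre Mfn2, 551 in DMP1-Cre Rhot1 and 736 in WT, and the cell at the 90th percentile had 3467, 3929.5 and 5951, so a minority of cells held most of the histone UMIs in each library. With every cell thinned to 5000 UMIs the mean was 5.69 histone UMIs in DMP1-Cre Mfn2, 6.75 in DMP1-Cre Rhot1 and 9.70 in WT members, against 7.04, 7.87 and 7.70 in other cells. The median thinned cell had 3 histone UMIs in DMP1-Cre Mfn2, 3 in DMP1-Cre Rhot1 and 4 in WT members, against 3, 3 and 3 in other cells, all below the means. Across the 4 score bands, from lowest to highest, the sum was 1661, 1428, 978 and 549 CPM in DMP1-Cre Mfn2 members and 2345, 1759, 985 and 709.5 CPM in DMP1-Cre Rhot1 members. In WT members it was 2374, 2058, 1915 and 1777 CPM. The libraries therefore differed most in the highest band, which held 128 DMP1-Cre Mfn2, 158 DMP1-Cre Rhot1 and 88 WT cells. Replication genes in that band summed to 1221 CPM in DMP1-Cre Mfn2, 1296 in DMP1-Cre Rhot1 and 1506 in WT members.

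**Figure D5:**
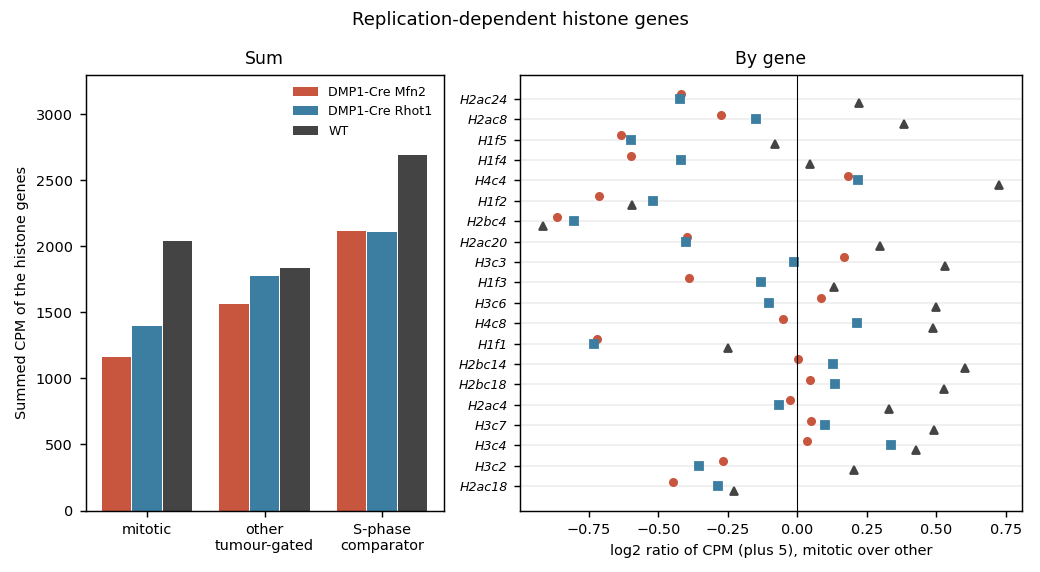
Left, summed CPM of the replication-dependent histone genes in mitotic cells, other tumour-gated cells and the S-phase comparator of each library (bars from 0). Right, log2 ratio of CPM (5 CPM added) in mitotic over other tumour-gated cells for the 20 histone genes at 10 CPM or more; the WT triangles lie right of 0 for 15 genes, the DMP1-Cre Mfn2 circles for 7 and the DMP1-Cre Rhot1 squares for 6.

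Gene lists for metabolism and stress gave smaller differences between hosts. In DMP1-Cre Mfn2 members, 2 of 29 replication genes were lower and none higher, with a median of -0.21. In DMP1-Cre Rhot1 members none of 30 was past the fold, with a median of -0.08. In the other cells these medians were -0.01 for DMP1-Cre Mfn2 and 0.20 for DMP1-Cre Rhot1. Hypoxia genes had a median of 0.28 in DMP1-Cre Mfn2 members, with none of 12 past the fold. In DMP1-Cre Rhot1 members it was -0.05, with 1 of 12, Adm, lower at -0.66. The hypoxia medians in the other cells were 0.07 for DMP1-Cre Mfn2 and -0.35 for DMP1-Cre Rhot1, with 2 genes lower past the fold in DMP1-Cre Rhot1. Of 16 glycolysis genes in members Slc2a1 was higher in DMP1-Cre Mfn2, at 0.58, and none was past the fold in DMP1-Cre Rhot1. Polyamine genes held 3 of 9 higher in DMP1-Cre Mfn2, namely Odc1 at 1.03, Sat1 at 0.73 and Smox, spermine oxidase, at 0.57, and Odc1 alone in DMP1-Cre Rhot1, at 0.71. Mitochondrially encoded genes had a median of 0.22 in DMP1-Cre Mfn2 and 0.26 in DMP1-Cre Rhot1 members, and of 0.28 and 0.32 in the other cells of these hosts, with none of 11 past the fold in members and 1 of 11 past it in the other cells of DMP1-Cre Rhot1. Over all genes at 10 CPM or more the medians in members were 0.02 for DMP1-Cre Mfn2 and 0.05 for DMP1-Cre Rhot1.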

How the data were processed

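The deposited files hold whole UMI counts per gene and cell barcode, 1 matrix per library. Per the file headers the authors ran Cell Ranger 7.0.0, and per the submitters' processing notes the build was mm10; which annotation was used, and whether introns counted, is not given in the sources used here. Libraries held 10016 (DMP1-Cre Mfn2), 9534 (DMP1-Cre Rhot1) and 9393 (WT) barcodes with 118123705, 118223251 and 112088653 UMIs, and barcodes under 300 genes or above 15% mt- UMIs were dropped, leaving 9868, 9359 and 9295 cells. Doublets were marked with Scrublet in scanpy 1.11.5 (292, 217 and 281 cells) and kept in the main result. Cells could not be traced to single mice, which makes each pool 1 sample.

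The members, gene lists and named-gene rules were chosen with earlier results of these data known. Named genes are the 15 highest and 8 lowest in members over other tumour-gated cells, ranked by the library nearest 0, and the 8 highest and 8 lowest of each genotype comparison, all at 50 CPM or more; mt-, ribosomal protein, immunoglobulin and haemoglobin genes and gene models without a name were not ranked, nor were genes over 3 times as abundant in all kept cells. Of these, 1 gene is not reported here. Of each list the 3 highest and 3 lowest could be named. List members had to reach 10 CPM in a sum compared. CPM are UMI sums per 1000000, and intervals at 95% are exact Poisson, conditional or Clopper-Pearson. Intervals treat UMIs as independent, so that a gene concentrated in few cells has too small an interval. The steps were tested on simulated counts with 200 changed genes. Gene positions are from GENCODE M21.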

Additional observations from a re-analysis of the deposited data

How the results depend on the processing

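No paired analysis was possible because each genotype had 1 library, for which replicates could not be left out either. The share of members over WT ran from 0.944 to 1.07 for DMP1-Cre Mfn2 and from 1.12 to 1.303 for DMP1-Cre Rhot1 over 8 other settings of gate, threshold, depth, doublets and score genes. Counts of genes past the fold moved by over 1.5 times as follows. At a minimum of 10 CPM, which tests more genes, 229 genes were higher and 43 lower in members, 176 higher and 83 lower in DMP1-Cre Mfn2 over WT, and 131 higher and 70 lower in DMP1-Cre Rhot1 over WT. A pseudocount of 20 CPM, which draws low genes towards 0, gave 14 lower in members and 21 higher and 13 lower in DMP1-Cre Rhot1 over WT. The top 5% gave 97 higher in DMP1-Cre Mfn2 over WT, and the top 20% gave 29 higher in DMP1-Cre Rhot1 over WT; the cause was not tested. Over 512 alternative values of the 32 named genotype results, 512 kept their direction and 506 stayed past the fold; the exceptions, at the top 5% or 20%, are named in the results. The histone medians ran from -1.02 (top 5%) to -0.32 (top 20%) for DMP1-Cre Mfn2 over WT and from -0.77 to -0.10 for DMP1-Cre Rhot1 over WT under the same thresholds. Members without S-phase cells were an alternative chosen after seeing the data, and gave -0.73 and -0.34. Depth limits single genes at 10 to 50 CPM, and no setting stands in for a second library.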
